A study of Mus musculus with 4 samples.

Results

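The nitric oxide and cGMP pathway was examined through 10 genes, chosen by name from the deposited gene table: Nos3, Gucy1a1, Gucy1b1, Npr1, Npr3, Pde5a, Ddah1, Ddah2, Arg2 and Prkg1. All 10 were among its 17915 rows, and all 10 passed the filter on low counts. The cells were sorted lung endothelial cells of mice of the genotype Cdh5-CreER;aSMA-LSL-Dre;NR1, given tamoxifen 5 times and taken 6 weeks after their aorta was narrowed by transverse aortic constriction (TAC), which loads the heart. Cdh5-CreER is a tamoxifen-inducible recombinase driven by an endothelial cadherin gene, and aSMA-LSL-Dre places the Dre recombinase at the alpha smooth muscle actin gene. Endothelial cells were marked by ZsGreen, and those in which that actin gene had been active, even briefly, by tdTomato. The study compared 2 libraries of tdTomato+ cells with 2 libraries of ZsGreen+ cells by bulk RNA sequencing, to learn what this activation goes with. Genotype, tamoxifen and TAC were shared by both groups, so neither the operation nor the alleles differed between them. Titles number the samples as biological replicates 1 and 2, and whether these were separate mice is not given, so p-values measure only the spread between these libraries.

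Nitric oxide is made from arginine by nitric oxide synthases, and in endothelium mainly by the synthase encoded by Nos3. The gas diffuses to neighbouring cells such as smooth muscle, where it binds soluble guanylyl cyclase, a pair of an alpha and a beta subunit, and the cGMP formed activates protein kinase G and relaxes the vessel wall. Natriuretic peptides raise cGMP through a receptor that is itself a cyclase, and phosphodiesterases break cGMP down. In the lung this pathway keeps vascular resistance low, and drugs against pulmonary hypertension act on it.

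Library totals lay between 17050673 and 18574737 counts. Of the 8 endothelial markers none was at 0, and their summed level was 6344 and 5960 CPM in tdTomato+ libraries and 7571 and 6879 CPM in ZsGreen+ libraries. CPM here are counts scaled to a common library size and composition, which serve to compare one gene between libraries. TPM, as deposited, also correct for transcript length and serve to compare genes with one another. Acta2, the gene the recorder reads, was at 303.9 and 527.5 CPM in tdTomato+ libraries against 87.6 and 82.9 CPM. In bulk libraries, fewer cells of a type and less RNA per cell cannot be told apart.

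None of the 10 genes passed edgeR's test at an adjusted p under 0.05, beside 40 of 13177 genes over the whole table (0.304%). At an unadjusted p under 0.05 edgeR gave 2 of the 10, Nos3 and Prkg1, both higher in tdTomato+ cells, while 8.77% of all genes tested reached this level. DESeq2, run on the same counts, called 1 of the 10, Nos3, and 2.44% of the genes it tested. In 7 of the 10 genes the 2 groups did not overlap in CPM, where 38.1% of all genes did not overlap. The tdTomato+ libraries were above in 4 and below in 3 of the 10, beside 19.9% and 18.2% of all genes. The median log2 fold change of the 10, tdTomato+ over ZsGreen+, was -0.11, beside -0.01 over all genes tested. With 2 libraries against 2 an exact two-sided permutation test cannot go below p = 0.333, so none is given for single genes.

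The 10 genes spanned a wide range of levels. Per transcript length, Ddah2 was highest with a mean of 362 TPM over the 4 libraries, followed by Npr1 (120 TPM), Ddah1 (119 TPM) and Nos3 (75.1 TPM). Npr3 (3.46 TPM) and Arg2 (3.36 TPM) followed at a distance, and then Pde5a (1.62 TPM), Prkg1 (1.46 TPM), Gucy1b1 (0.963 TPM) and Gucy1a1 (0.76 TPM). Some of these orders changed with the group. Npr1 was above Ddah1 in both tdTomato+ libraries, at 133 and 133 against 117 and 100 TPM. It was below Ddah1 in both ZsGreen+ libraries, at 106 and 107 against 121 and 136 TPM. Arg2 was above Npr3, and Prkg1 above Pde5a, in both tdTomato+ libraries, and each was below in both ZsGreen+ libraries. The order of Prkg1 and Gucy1b1, and that of Gucy1b1 and Gucy1a1, varied between libraries of the same group. Nos3 reached the level of Ddah1 in 1 tdTomato+ library and lay below it in both ZsGreen+ libraries. The mean of Ddah2 exceeded that of 97.3% of all rows of the table and that of Gucy1a1 exceeded 32%. Among the 10, the synthase, the enzymes that protect it from its inhibitors and the natriuretic peptide receptor Npr1 were thus read at high levels. The receptor Npr3, Arg2, the cyclase that senses nitric oxide, the kinase Prkg1 and the phosphodiesterase Pde5a were read at low ones. Phosphodiesterases outside the 10 were not all low, with Pde2a at a mean of 42.3 TPM and Pde9a at 39.3 TPM.

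**Figure D1:**
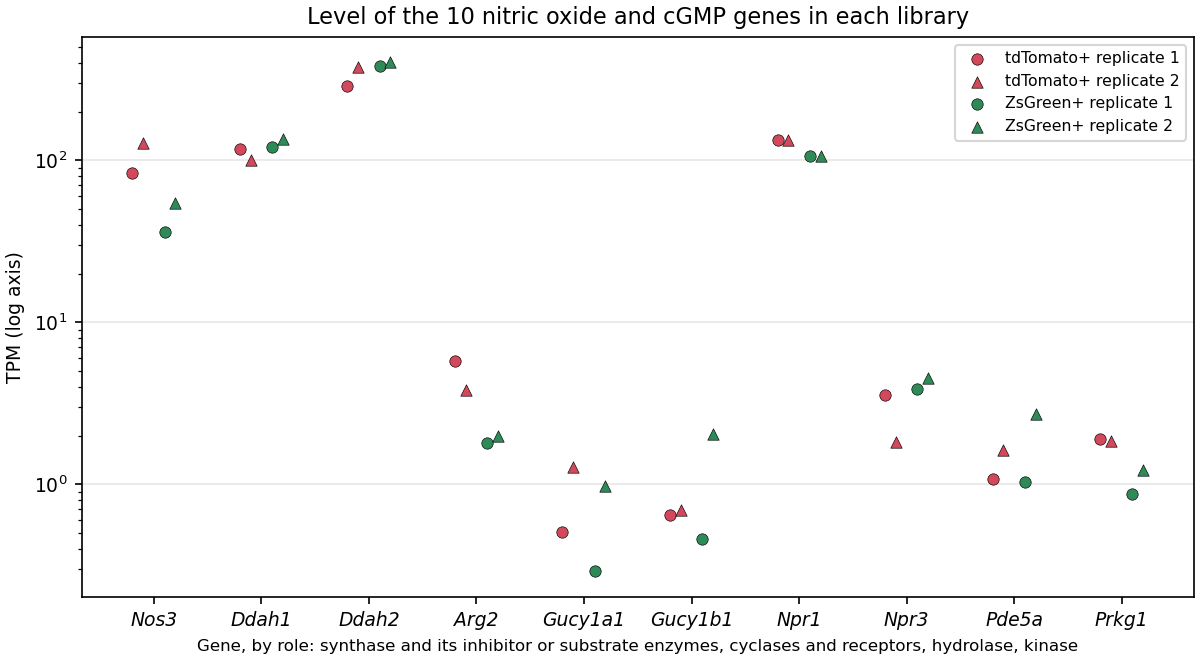
Level of each of the 10 genes in TPM (log axis) in every library, with red for tdTomato+ and green for ZsGreen+, circles for replicate 1 and triangles for replicate 2. Ddah2, Npr1, Ddah1 and Nos3 lie above 35 TPM in every library and the other 6 genes below 6 TPM, and Nos3 shows both tdTomato+ points above both ZsGreen+ points.

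Nos3, endothelial nitric oxide synthase, stood about 2.13-fold higher in tdTomato+ cells by edgeR's estimate. Its level was 200.5 and 322.4 CPM in tdTomato+ libraries and 107.4 and 137.7 CPM in ZsGreen+ libraries. Both tdTomato+ libraries were above both others, with replicate 2 the higher in each group. The means were 261 ± 86.1 and 123 ± 21.4 CPM (SD, n = 2 per group), and tdTomato+ over ZsGreen+ gave a log2 fold change of 1.09 (SE 0.27, adjusted p = 0.231 by edgeR). DESeq2 gave 1.08 (SE 0.28, DESeq2 adjusted p = 0.00925), and edgeR with the replicate number as a block also called it, at 1.06 (adjusted p = 5.28e-05), so the call depends on the test and its design. In deposited TPM the gene was at 83 and 127 against 35.9 and 54.3. In GRCm38 Nos3, NCBI Gene 18127, lies on chromosome 5 from 24364816 to 24384474.

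Markers of endothelial subtypes also differed between the groups. Here and below, counts of markers above or below in both tdTomato+ libraries stand beside 19.9% and 18.2% of all genes. The summed level of the 7 venous markers was 3379 and 4351 CPM in tdTomato+ libraries and 1797 and 1702 CPM in ZsGreen+ libraries, with 3 of the 7 called higher by edgeR. The sum of the 8 arterial markers was 2124 and 2881 CPM against 2062 and 2141 CPM, with 3 above and 2 below in both tdTomato+ libraries and a median log2 fold change of 0.02. Of these, edgeR called 1, Mgp, at 595.2 and 765.4 CPM against 164.3 and 128.4 CPM, while Hey1 and Sox17 were the 2 below. Of the 7 lymphatic markers tested 6 were below in both tdTomato+ libraries and 3 were called lower, Mmrn1, Reln and Thy1. Their median log2 fold change was -2.03. The lymphatic sum was 713.3 and 1005 CPM against 941.7 and 1231 CPM. Its largest part in every library was Lyve1, the marker that overlapped, at 502.8 and 839.6 CPM against 407.4 and 592.7 CPM. Of the 8 markers of aerocytes, the capillary cells of gas exchange, 7 were below and 1, Prx, was called lower, with a sum of 598.4 and 540 CPM against 833.7 and 900.1 CPM. Of the 8 general capillary markers 4 were below and 4 overlapped, with none called by edgeR (4 at an unadjusted p under 0.05) and 3 by DESeq2, and a sum of 7071 and 7418 CPM against 8806 and 7616 CPM. No marker of these lists that was in the table was at 0 in any library. Their part in the level of Nos3 was not tested. Over the 4 libraries, the genes whose log2 CPM profile lay nearest to that of Nos3 among the 10360 that averaged 5 CPM or more were Lmcd1, a LIM domain protein, Enah, a regulator of actin assembly, and Pcolce, an enhancer of procollagen processing. Their Euclidean distances from Nos3, with each gene centred on its own mean, were 0.0653, 0.112 and 0.14 log2 units.

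Ddah1 and Ddah2 encode the dimethylarginine dimethylaminohydrolases, which degrade methylated arginines that inhibit nitric oxide synthase. Ddah1 was at 255.5 and 230.1 CPM in tdTomato+ libraries and at 325.8 and 310.4 CPM in ZsGreen+ libraries, and Ddah2 at 205.9 and 285.2 against 342.4 and 303.1 CPM. Both genes were below in both tdTomato+ libraries, Ddah2 by a narrower gap. The log2 fold changes were -0.39 (SE 0.18) for Ddah1 and -0.39 (SE 0.22) for Ddah2, with edgeR adjusted p of 0.626 and 0.737. Per transcript length, Ddah2 was the higher of the pair by 2.45 and 3.75 times in tdTomato+ libraries and 3.17 and 2.97 times in ZsGreen+ libraries. The sum of both genes, divided by Nos3, was 4.86 and 3.75 in TPM in tdTomato+ libraries and 14 and 9.92 in ZsGreen+ libraries. Every ZsGreen+ ratio was above every tdTomato+ ratio, with the larger difference between groups in Nos3. Ddah1 spans positions 145758692 to 145894277 of chromosome 3 and Ddah2 positions 35059035 to 35062099 of chromosome 17. The deposited annotation gives another start for Ddah2, 1308738, with the same end. Whether this bears on its counts was not tested.

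Arg2, the mitochondrial arginase that consumes the arginine used by the synthase, was scarce. It was at 4.4 and 3.05 CPM in tdTomato+ libraries against 1.71 and 1.59 CPM, from 79.5 and 58 counts against 27 and 29. The groups did not overlap, and tdTomato+ over ZsGreen+ gave a log2 fold change of 1.17 (SE 0.49, adjusted p = 0.57 by edgeR). Of 5 neutrophil markers 4 were above in both tdTomato+ libraries, with none called by edgeR or DESeq2 and 0 at an unadjusted p under 0.05 by edgeR, and a sum of 42.4 and 45.4 CPM against 31.1 and 15.8 CPM. Macrophage and monocyte markers summed to 5413 and 2536 CPM against 2991 and 630 CPM, with 2 of 8 above in both tdTomato+ libraries, none called by edgeR (2 at an unadjusted p under 0.05) and 1 by DESeq2. No marker of these lists was at 0, and their part in the level of Arg2 was not tested. Arg2 spans positions 79130788 to 79156301 of chromosome 12.

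Promoter windows are shown for 3 of the 10 genes at different places in the pathway and at different levels: the abundant Ddah2, the scarce cyclase subunit Gucy1b1 and the kinase Prkg1, whose reads are described below. Each is the 250 bases before a RefSeq start in GRCm38.p6, in the direction of transcription, with the GC box GGGCGG (either strand) in capitals. Ddah2 is at chr17:35058785-35059034 (+ strand), Gucy1b1 at chr3:82074712-82074961 (- strand) and Prkg1 at chr19:31664371-31664620 (- strand), the last being the inner of its 2 listed starts.
Ddah2: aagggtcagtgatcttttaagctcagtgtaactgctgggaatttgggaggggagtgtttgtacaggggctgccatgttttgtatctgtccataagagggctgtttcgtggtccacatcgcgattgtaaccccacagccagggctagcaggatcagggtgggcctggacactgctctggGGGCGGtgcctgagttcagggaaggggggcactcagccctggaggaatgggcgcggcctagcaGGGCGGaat
Gucy1b1: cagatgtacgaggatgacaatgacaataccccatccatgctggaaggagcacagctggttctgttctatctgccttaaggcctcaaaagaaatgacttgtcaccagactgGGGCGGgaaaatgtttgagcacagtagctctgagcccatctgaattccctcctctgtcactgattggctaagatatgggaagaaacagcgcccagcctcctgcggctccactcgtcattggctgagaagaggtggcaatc
Prkg1: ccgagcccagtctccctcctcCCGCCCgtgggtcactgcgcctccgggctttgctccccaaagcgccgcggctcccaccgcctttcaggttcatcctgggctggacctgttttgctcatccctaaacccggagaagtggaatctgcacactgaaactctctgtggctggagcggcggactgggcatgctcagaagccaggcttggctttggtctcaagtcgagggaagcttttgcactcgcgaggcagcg
Of the 10 genes 8 had windows in the RefSeq table, 10 windows in all; Nos3 and Arg2 had none. The GC box was present in 7 of these 10 windows, beside 32.7% of all 32851 windows of this length, and the TATA box TATAAA (either strand) in none, beside 12.4% of all windows. Gucy1a1 and Prkg1 have 2 windows each. All but the windows of Npr3 (38.8% GC) and Gucy1b1 (51.2% GC) lay above the median GC content of 52.4%, up to 70.4% for Npr1. The share over all windows was not matched for GC content. The windows printed hold 2 GC boxes for Ddah2, 1 for Gucy1b1 and 1 for Prkg1, with 7, 5 and 16 CpG dinucleotides where the median window has 6. Among the 3 windows printed, Prkg1 has the most CpG and is read far below Ddah2. The window at the other Prkg1 start holds 9 CpG. The relation of CpG number to level was not tested. A match describes these letters and not a bound site.

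Gucy1a1 and Gucy1b1 encode the alpha and beta subunits of soluble guanylyl cyclase, the receptor of nitric oxide, and lie next to each other on chromosome 3 at positions 82092427 to 82145946 and 82032004 to 82074711. Gucy1a1 had 26 and 71 counts in tdTomato+ libraries and 16 and 52 in ZsGreen+ libraries, that is 1.43 and 3.73 CPM against 1.01 and 2.85 CPM. Gucy1b1 had 22 and 26 counts against 17 and 74, or 1.21 and 1.37 CPM against 1.08 and 4.05 CPM. The groups overlapped for both genes, and in each the replicate 2 libraries were the higher. The log2 fold changes were 0.41 (SE 0.72) for Gucy1a1 and -1.0 (SE 0.73) for Gucy1b1, with edgeR adjusted p of 0.944 and 0.825. The opposite signs rest on single libraries. Gucy1a1 turned to -0.42 without tdTomato+ replicate 2 and to -0.14 without ZsGreen+ replicate 1, and Gucy1b1 to 0.26 without ZsGreen+ replicate 2. In TPM, Nos3 exceeded the higher of both subunits by 128 and 100 times in tdTomato+ libraries and by 78.1 and 26.5 times in ZsGreen+ libraries.

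Pericytes and platelets are known to carry this cyclase, and markers of both were read at levels from below to above its subunits. The 10 pericyte markers summed to 12 and 12.9 CPM in tdTomato+ libraries and 8.1 and 14.4 CPM in ZsGreen+ libraries, with 2 of 8 tested above and 2 below in both tdTomato+ libraries and none called by edgeR (2 at an unadjusted p under 0.05) or DESeq2. Trpc6 was at 0 in 1 library of each group. Its members lay on both sides: Pdgfrb, a growth factor receptor, was at 5.12 and 5.67 CPM against 2.40 and 2.57 CPM, and Kcnj8, a potassium channel subunit, at 0.28 and 0.47 CPM against 1.33 and 3.83 CPM. The 8 platelet markers summed to 30.8 and 23.7 CPM against 42.8 and 20.5 CPM, with none at 0. Their part in the reads of the cyclase was not tested. The other subunits were read even less, Gucy1a2 with 4 to 9 counts in a library and Gucy1b2 with none in any.

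**Figure D2:**
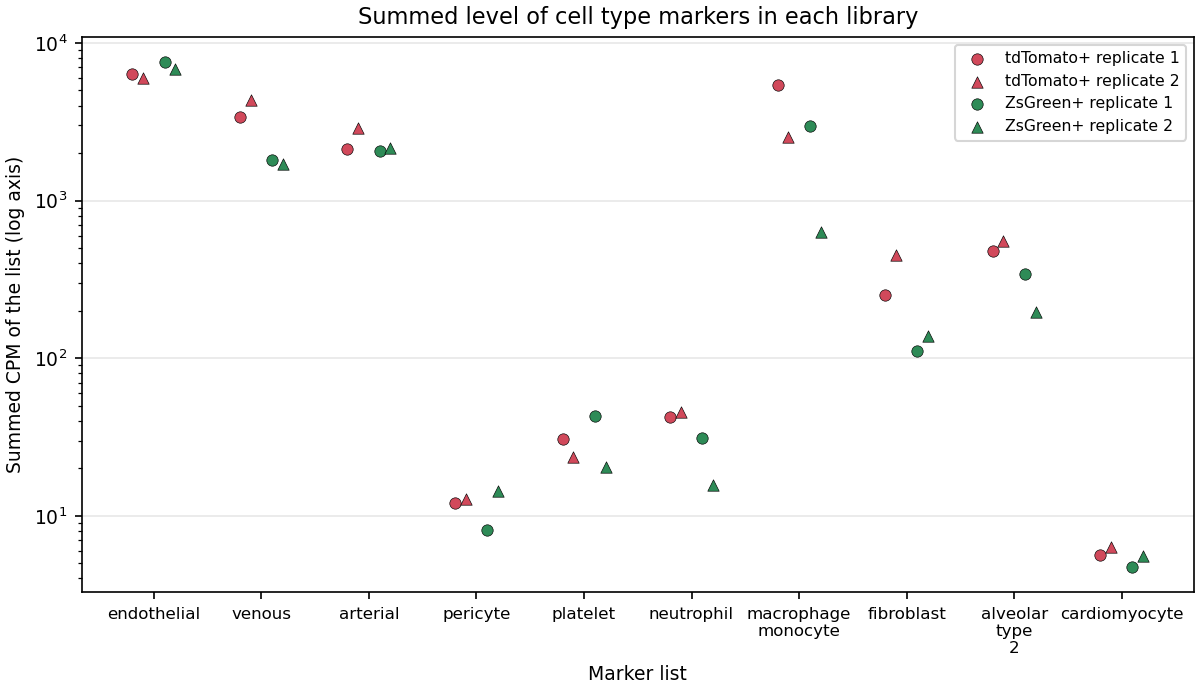
Summed CPM (log axis) of 10 marker lists in every library, with red for tdTomato+, green for ZsGreen+, circles for replicate 1 and triangles for replicate 2. Venous, fibroblast, neutrophil, alveolar type 2 and cardiomyocyte sums are higher in both tdTomato+ libraries, and the endothelial sum is lower in both. Pericyte sums stay between 8.1 and 14.4 CPM with the groups overlapping.

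Npr1 encodes the guanylyl cyclase receptor of atrial and B-type natriuretic peptides, and was among the most abundant of the 10 genes. It was at 315.2 and 331.4 CPM in tdTomato+ libraries and at 311.6 and 264.1 CPM in ZsGreen+ libraries. The groups were adjacent, with 1 ZsGreen+ library close to the lower tdTomato+ library, and tdTomato+ over ZsGreen+ gave a log2 fold change of 0.17 (SE 0.19, adjusted p = 0.893 by edgeR). Npr3, the receptor that clears these peptides, was at 10.6 and 6.77 CPM against 13.2 and 12 CPM. Both tdTomato+ libraries were below both others, and tdTomato+ over ZsGreen+ gave a log2 fold change of -0.53 (SE 0.33, adjusted p = 0.767 by edgeR). In TPM, Npr1 exceeded Npr3 by 37.2 and 72.9 times in tdTomato+ libraries and by 27.4 and 23.4 times in ZsGreen+ libraries. Npr1 spans positions 90450591 to 90465928 of chromosome 3 and Npr3 positions 11839896 to 11907837 of chromosome 15.

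Pde5a, the cGMP-specific phosphodiesterase that sildenafil inhibits, was at 4.35 and 6.88 CPM in tdTomato+ libraries and at 5.13 and 11.6 CPM in ZsGreen+ libraries. The groups overlapped, with ZsGreen+ replicate 2 the highest, and tdTomato+ over ZsGreen+ gave a log2 fold change of -0.57 (SE 0.48, adjusted p = 0.844 by edgeR). Without that library it was 0.13. Prkg1, the cGMP-dependent protein kinase that relaxes smooth muscle, had the tightest replicates of the low genes, at 7.10 and 6.98 CPM against 3.99 and 3.78 CPM. Every tdTomato+ library was above every ZsGreen+ library, and tdTomato+ over ZsGreen+ gave a log2 fold change of 0.86 (SE 0.36, adjusted p = 0.558 by edgeR), a fold of 1.81. Smooth muscle cells carry this kinase, and of the 7 smooth muscle markers 3 were above and 1 below in both tdTomato+ libraries, with none called by edgeR (0 at an unadjusted p under 0.05) or DESeq2. The smooth muscle list summed to 1594 and 2117 CPM in tdTomato+ libraries and 1633 and 1242 CPM in ZsGreen+ libraries, with the groups overlapping. Myh11, smooth muscle myosin, also overlapped, at 4.07 and 7.67 CPM against 2.85 and 4.71 CPM. Fibroblast markers summed to 250 and 453.8 CPM against 111.8 and 139.1 CPM, with 6 of 10 above in both tdTomato+ libraries, none called by edgeR (6 at an unadjusted p under 0.05) and 4 by DESeq2. No marker of either list was at 0, and their part in the level of Prkg1 was not tested. Pde5a spans positions 122729158 to 122859374 of chromosome 3 and Prkg1 positions 30564487 to 31765268 of chromosome 19.

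Around these 10 genes, 73 other genes of the pathway were listed by role, of which 71 were in the table and 53 could be tested. None of the 53 passed edgeR's adjusted test. At an unadjusted p under 0.05, 6 stood higher and 5 lower in tdTomato+ cells, where over all genes 5.62% stood higher and 3.15% lower at that level. DESeq2 called 4, Pde2a higher and Nostrin, Pde9a and Nppb lower. In CPM the groups did not overlap for 22 of the 53, with tdTomato+ libraries above in 12 and below in 10, beside 38.1%, 19.9% and 18.2% of all genes. The median log2 fold change of the 53 was -0.07.

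Among the other synthases and their partners, 1 of 13 genes tested was above and 4 below in both tdTomato+ libraries. Over all genes these shares were 19.9% and 18.2%. Nos2, the inducible synthase, was at 49.7 and 53.7 CPM in tdTomato+ libraries and at 82.3 and 79.9 CPM in ZsGreen+ libraries, with a log2 fold change of -0.65 (SE 0.17, edgeR adjusted p = 0.268). It was thus placed opposite to Nos3. Macrophages are also known for Nos2, and the sum of their markers was 5413 and 2536 CPM in tdTomato+ libraries and 2991 and 630 CPM in ZsGreen+ libraries; their part in the level of Nos2 was not tested. In TPM, Nos3 exceeded Nos2 by 3.73 and 5.54 times in tdTomato+ libraries and by 1.21 and 1.59 times in ZsGreen+ libraries. Nostrin, which binds endothelial nitric oxide synthase and controls its place in the cell, was at 80.9 and 83.2 CPM against 132.8 and 185.8 CPM, an estimate of -0.96 on the log2 scale (SE 0.21, edgeR adjusted p = 0.178, DESeq2 adjusted p = 0.00646). Without ZsGreen+ replicate 1 edgeR called Nostrin lower, at -1.18 (adjusted p = 0.02), and without ZsGreen+ replicate 2 it was -0.70 (adjusted p = 0.2). Without tdTomato+ replicate 1 or 2 the adjusted p was 0.816 and 0.821. Nos1, the neuronal synthase, had at most 3 counts in a library.

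Of the 6 genes that make or recycle the cofactor tetrahydrobiopterin, 1 was above in both tdTomato+ libraries and 5 overlapped. Over all genes 19.9% were above in this way. Gch1, its first enzyme, was at 44.1 and 48.4 CPM against 35.3 and 42.1 CPM, an estimate of 0.26 on the log2 scale (SE 0.19), and its feedback regulator Gchfr at 15.7 and 41.2 against 25.8 and 51.5 CPM (-0.44, SE 0.49). Gchfr was higher in the replicate 2 library of each group, and its groups overlapped. Of the 6 genes of arginine supply and use, 1 was above in both tdTomato+ libraries. This was Slc7a2, a transporter of cationic amino acids, at 12.4 and 5.62 CPM against 4.75 and 2.08 CPM (1.41, SE 0.56, edgeR adjusted p = 0.538). Leaving out tdTomato+ replicate 1 moved it to 0.72 and leaving out ZsGreen+ replicate 1 to 2.12. Ass1, which remakes arginine from citrulline, was at 68.9 and 101.9 CPM against 71.7 and 63.1 CPM (0.34, SE 0.23).

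Of the 7 genes of nitric oxide removal, Cygb, cytoglobin, had the largest difference. It was at 28.2 and 84.8 CPM in tdTomato+ libraries and at 14.1 and 26.2 CPM in ZsGreen+ libraries, an estimate of 1.48 on the log2 scale (SE 0.53, edgeR adjusted p = 0.458). Without tdTomato+ replicate 2 it was 0.50 and without tdTomato+ replicate 1 it was 2.07. Cytoglobin is known from fibroblasts and pericytes. The fibroblast sum was 250 and 453.8 CPM in tdTomato+ libraries and 111.8 and 139.1 CPM in ZsGreen+ libraries. The pericyte sum was 12 and 12.9 CPM against 8.1 and 14.4 CPM. The part of fibroblast or pericyte RNA in the level of Cygb was not tested. Hba-a1, an alpha globin chain, was at 11.5 and 21.7 against 19.7 and 30.5 CPM (-0.60, SE 0.36), with the groups overlapping. It shares reads with the near-identical Hba-a2, so the split between both is uncertain.

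Among the other cyclases and the peptide ligands, most genes were at or near the floor. Npr2, the receptor of C-type natriuretic peptide, was the only other cyclase tested, at 9.57 and 15.4 CPM in tdTomato+ libraries against 5.32 and 7.29 CPM, an estimate of 0.98 on the log2 scale (SE 0.37, edgeR adjusted p = 0.485). In TPM, Npr1 exceeded Npr2 by 31 and 20.4 times in tdTomato+ libraries and by 54.5 and 34.2 times in ZsGreen+ libraries. Nppb, B-type natriuretic peptide, had 6 and 5 counts in tdTomato+ libraries against 30 and 86 in ZsGreen+ libraries. The estimate was -3.45 on the log2 scale (SE 0.74, adjusted p = 0.176 by edgeR, DESeq2 adjusted p = 0.0104), and edgeR called it without ZsGreen+ replicate 1, at -3.96 (adjusted p = 0.0433). Without ZsGreen+ replicate 2 it was -2.66 (edgeR adjusted p = 0.298), and without tdTomato+ replicate 1 or 2 the adjusted p was 0.583 and 0.793. Heart muscle is the main source of this peptide, and the 6 cardiomyocyte markers summed to 5.67 and 6.35 CPM against 4.75 and 5.53 CPM, with none of the 3 tested called by edgeR (0 at an unadjusted p under 0.05) or DESeq2. Of these markers Actc1 was above in both tdTomato+ libraries, at 2.09 and 3.94 CPM against 1.46 and 1.59 CPM. Tnnt2 and Tnni3 overlapped between the groups. Myh6 and Myl7 were at 0 in both tdTomato+ libraries. In ZsGreen+ libraries Myh6 was at 0.32 and 0.05 CPM and Myl7 at 0.44 and 0.55 CPM. Nppa, a marker that is also a ligand gene, had 2 and 4 counts in tdTomato+ libraries against 7 and 12. The part of these markers in the reads of Nppb was not tested. Furin, which cleaves natriuretic peptide precursors, was at 194.4 and 191.1 CPM against 235.1 and 296.1 CPM (-0.46, SE 0.19, edgeR adjusted p = 0.568).

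Of the 8 other genes tested that carry a phosphodiesterase name, 4 were above and 2 below in both tdTomato+ libraries. Over all genes these shares were 19.9% and 18.2%. The 2 below were Pde9a and Pde6d. Pde2a, a cGMP-stimulated phosphodiesterase, was at 140.8 and 130.7 CPM in tdTomato+ libraries and at 85.7 and 74 CPM in ZsGreen+ libraries. The estimate was 0.77 on the log2 scale (SE 0.17, adjusted p = 0.198 by edgeR, DESeq2 adjusted p = 0.0326). Pde9a, which has a high affinity for cGMP, was at 28.6 and 33.9 CPM against 54.6 and 59.9 CPM (-0.87, SE 0.19, edgeR adjusted p = 0.19, DESeq2 adjusted p = 0.0237). In TPM, Pde2a exceeded Pde5a by 54.5 and 31.9 times in tdTomato+ libraries and by 28.1 and 10.8 times in ZsGreen+ libraries. Pde5a was thus read below Pde2a in every library.

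Downstream of cGMP, 2 of 7 kinase targets and related genes tested were above and 1 below in both tdTomato+ libraries. Over all genes these shares were 19.9% and 18.2%. Itpr1, the inositol trisphosphate receptor whose calcium release the kinase restrains, was at 48.6 and 39.3 CPM in tdTomato+ libraries and at 23.3 and 25.7 CPM in ZsGreen+ libraries. The estimate was 0.84 on the log2 scale (SE 0.21, adjusted p = 0.236 by edgeR). Hspb6, a small heat shock protein phosphorylated in smooth muscle, was at 18.4 and 20.5 CPM against 14.7 and 12.2 CPM (0.54, SE 0.25). The kinase target Kcnma1, the large-conductance potassium channel, had no count in any library. Of the exporters and cyclic nucleotide channels, Abcc5 was at 39.2 and 35.7 CPM against 31.2 and 27.7 CPM (0.35, SE 0.20), and the channel subunit Cngb1 at 4.95 and 4.57 against 7.59 and 4.38 CPM (-0.33, SE 0.42). For Abcc5 the groups did not overlap, and for Cngb1 they did.

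**Figure D3:**
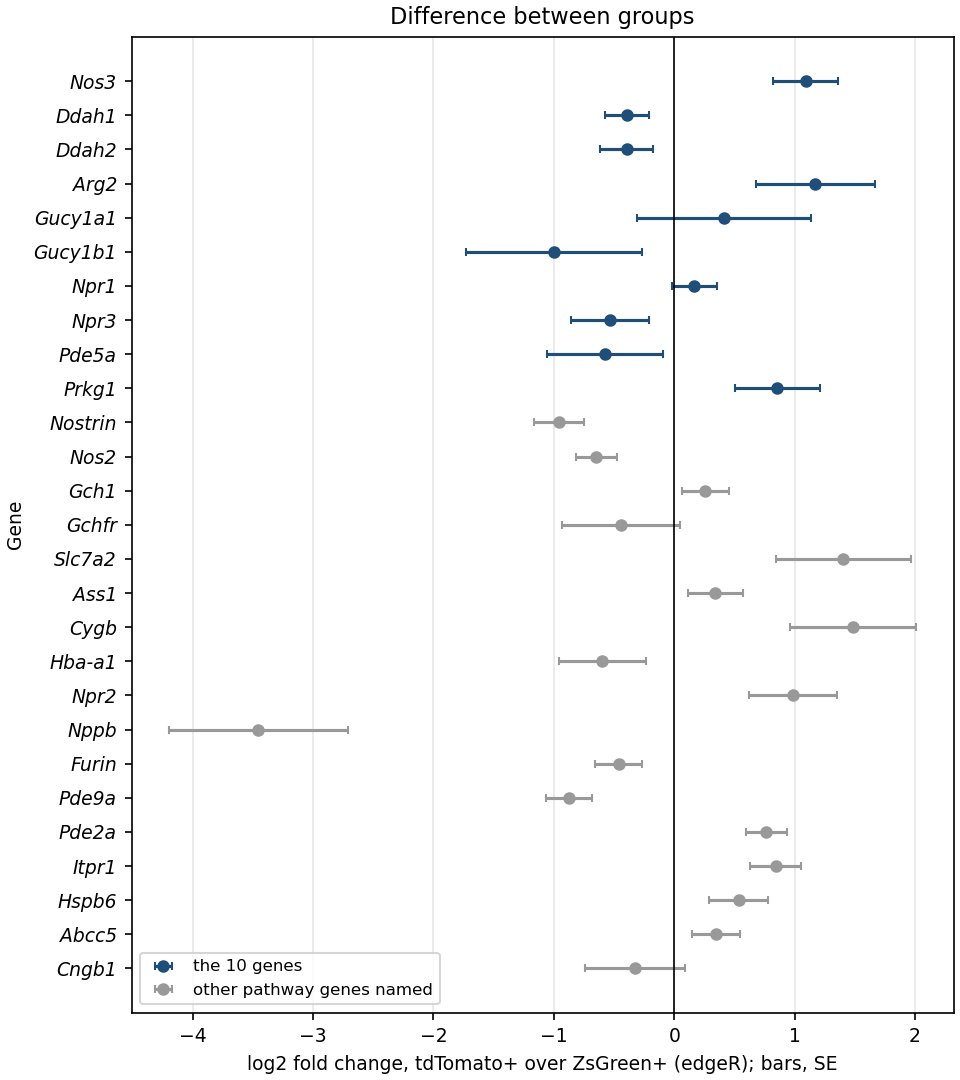
log2 fold change of tdTomato+ over ZsGreen+ libraries with its standard error, from edgeR, for the 10 genes (blue) and the 17 other pathway genes named by rule (grey). Nos3, at 1.09, and Arg2, at 1.17, lie farthest to the right among the 10, and Nppb, at -3.45 on few counts, farthest to the left of all; none passed the adjusted test.

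**Figure D4:**
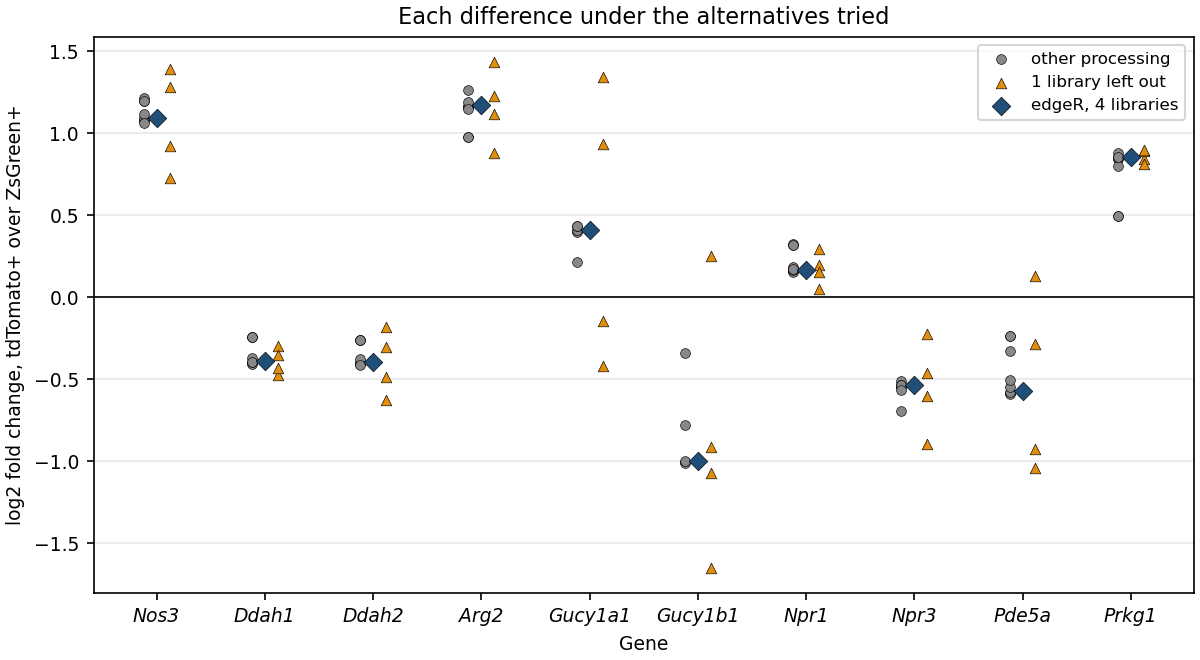
log2 fold change of each of the 10 genes from edgeR with all 4 libraries (blue diamonds), with 1 library left out (orange triangles) and under the other alternatives (grey circles). Nos3 keeps its direction between 0.73 and 1.39, while Gucy1a1, Gucy1b1 and Pde5a cross 0 when a single library is left out.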

How the data were processed

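RNA of the sorted cells was amplified over the whole transcriptome from little input before library construction, per the labels' protocols, which can add spread between libraries. The authors deposited estimated counts, FPKM, TPM and normalized counts (a signal on the count scale) for each library in one gene table. Submitters' processing notes name RSEM 1.3.1, DESeq2 1.4.5 and the builds mm10 and GRCm38 with no role given; strand use in counting is not stated, so overlapping genes may share reads. Counts were not collapsed by molecular identifiers as far as the labels tell. Not whole were 16.2% to 17.9% of the estimated counts, which were rounded.

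edgeR 4.0.16 (R 4.3.3) compared the groups with its two-sided quasi-likelihood test, TMM factors and filterByExpr at a minimum count of 10, with Benjamini-Hochberg adjustment over 13177 genes and a threshold of 0.05; SE was derived from the fold change and its F statistic. On simulated data for these 13177 genes, with changes placed at 5 CPM or more, it called 26.7% of changes of 2-fold, 85.3% of those of 4-fold and 97.3% of those of 8-fold. Alternatives were RLE factors, DESeq2 1.42.0, no filter or a minimum count of 50, limma 3.58.1 on log2 of TPM plus 1 or 0.1 (1 TPM in 2 libraries, or no filter with plus 1), leaving out each library and a replicate block. The 10 genes, 9 role lists and 15 marker lists were chosen with earlier results of these data known. Named besides the 10 were up to 2 genes per role list, taken by p among those averaging 1 CPM or more. Kcnj8, Pdgfrb, Mgp, Hey1, Sox17, Mmrn1, Reln, Thy1, Lyve1, Prx, Actc1, Tnnt2, Tnni3, Nppa, Myh11, Nos1, Gucy1a2, Gucy1b2, Pde6d, Kcnma1 and the markers given at 0 were named after their values were seen. Spans come from RefSeq in GRCm38.p6.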

Additional observations from a re-analysis of the deposited data

How the results depend on the processing

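The count of genes called over the whole table, 40, was 330 with DESeq2, 128 without a filter on low counts, 22 with log2(TPM + 0.1), 0 with limma on log2(TPM + 1) and no filter (1508 at an unadjusted p under 0.05), 934 with the replicate block, and between 4 and 304 without 1 library: leaving out tdTomato+ replicate 1 gave 17 and its replicate 2 gave 4, and leaving out ZsGreen+ replicate 1 gave 304 and its replicate 2 gave 26. Of the 10 genes, none with edgeR, 1 was called with DESeq2 and 1 with the replicate block, Nos3 each time (block adjusted p = 5.28e-05). Of the 53 other pathway genes, 4 were called with DESeq2, 10 with the replicate block and between 0 and 2 without 1 library. The cause was not tested. The replicate number is not said to pair samples; deviations of the same-numbered libraries correlated at 0.45 over genes, with only 2 pairs, and the block called 934 of 13177 genes. Of 115 values of the 10 genes under 12 alternatives, 109 kept direction and side of the threshold, 2 became called and 4 turned. The turns came from leaving out a library, with ranges of -0.42 to 1.34 for Gucy1a1, -1.65 to 0.26 for Gucy1b1 and -1.04 to 0.13 for Pde5a; among other genes they were -1.28 to 0.14 for Gchfr and -0.68 to 0.12 for Cngb1. Nos3 ranged from 0.73 to 1.39. In TPM the median of all genes moved to 0.12 with plus 1 and 0.13 with plus 0.1, and no direction among the 10 changed relative to it; Gucy1a1 and Gucy1b1 did not pass the TPM filter and Gucy1b1 not the minimum count of 50. The 16 to 74 counts of the cyclase subunits limit what could be seen there.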
